A study of Homo sapiens with 10 samples.

Results

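Common SALL4 regions at the ends of protein-coding genes were examined in SNU398, an established human cell line labelled as hepatocellular carcinoma. A region belonged to the set when its midpoint lay within 1000 bp of either end of a protein-coding gene span (RefSeq, GRCh38.p14), as 757 of 11201 common regions did (6.76%). The rule used position only. The common regions are merged intervals deposited for 3 CUT&RUN libraries made with a SALL4 antibody. In CUT&RUN an antibody tethers a nuclease to a chromatin protein, and the released fragments mark where the protein sat. The 3 libraries made with normal rabbit IgG were not analysed here, so no level of signal is set against that control. Transcripts were measured in total RNA 72 hours after SNU398 cells were transduced with 1 SALL4 hairpin (shRNA-2, 2 libraries) or with a scrambled hairpin (2 libraries). All 4 transcript libraries thus carry a hairpin vector, and none is from untransduced cells.

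SALL4 belongs to the spalt-like zinc finger proteins, works in pluripotent cells and in the fetal liver, and is switched on again in some tumours. It binds AT-rich DNA through its last zinc finger cluster and recruits the NuRD complex, a chromatin remodeller with histone deacetylase activity, for which it is best known as a repressor. The start of a protein-coding gene carries its core promoter, an open stretch where RNA polymerase II assembles, and pairs of genes on opposite strands often share one such stretch. The opposite end of a gene is where its transcript is cleaved and polyadenylated.

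The 757 regions touched 848 genes, 4.23% of 20050 protein-coding genes, through 896 pairs of a region and a gene end. A single gene was within reach in 644 regions, 2 genes in 107 and 3 genes in 6. The promoter table gave a strand for 754 pairs, and 73.5% of these (554) were at the start of the gene, against 200 at the other end. The strand was not known for 142 pairs. In 68 regions, starts on both strands were within reach, and these held 139 genes. Either end of a long noncoding RNA gene also lay within 1000 bp of the midpoint in 127 of the 757 regions (16.8%). Among the other 10444 regions 250 had such an end (2.39%), a difference that was not tested.

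The bases below show what such a region looks like where the libraries coincide. Each line is the stretch of 250 bases that ends just before the RefSeq start of the gene, written in the direction of the gene (RefSeq, GRCh38.p14). In the first 4, peaks of all 3 libraries covered the same bases, which are in capitals. Of 8 genes with at least 20 such bases in the stretch, 5 had the stretch outside every RefSeq gene span, and a divergent pair among them (FASTKD2 and MDH1B) is shown once. FASTKD2 (chr2:206765356-206765605, plus strand) has 73 of them, API5 (chr11:43311746-43311995, plus strand) 43, CCDC34 (chr11:27363216-27363465, minus strand) 38 and ETV1 (chr7:13991426-13991675, minus strand) 22.
FASTKD2: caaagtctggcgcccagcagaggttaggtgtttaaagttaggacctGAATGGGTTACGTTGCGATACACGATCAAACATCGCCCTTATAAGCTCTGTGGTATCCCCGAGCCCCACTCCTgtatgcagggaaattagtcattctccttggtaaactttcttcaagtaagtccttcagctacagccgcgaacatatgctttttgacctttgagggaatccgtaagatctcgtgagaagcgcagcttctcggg
API5: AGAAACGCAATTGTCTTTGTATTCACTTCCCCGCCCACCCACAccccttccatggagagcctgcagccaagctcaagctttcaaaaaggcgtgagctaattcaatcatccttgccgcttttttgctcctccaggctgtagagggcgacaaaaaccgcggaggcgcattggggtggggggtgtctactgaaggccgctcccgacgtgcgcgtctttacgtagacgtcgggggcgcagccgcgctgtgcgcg
CCDC34: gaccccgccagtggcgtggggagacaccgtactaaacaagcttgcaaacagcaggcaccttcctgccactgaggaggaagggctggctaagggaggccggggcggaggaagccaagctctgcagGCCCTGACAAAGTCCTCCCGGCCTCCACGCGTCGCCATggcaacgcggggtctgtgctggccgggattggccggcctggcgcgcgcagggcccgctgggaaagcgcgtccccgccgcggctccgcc
ETV1: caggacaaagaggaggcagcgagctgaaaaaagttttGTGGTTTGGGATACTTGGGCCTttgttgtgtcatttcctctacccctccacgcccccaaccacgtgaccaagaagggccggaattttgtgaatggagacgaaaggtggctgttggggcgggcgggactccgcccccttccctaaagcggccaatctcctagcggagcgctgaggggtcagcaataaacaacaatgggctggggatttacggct
The fifth stretch is the only one outside every RefSeq gene span that had bases shared by 2 libraries and belonged to a gene that passed the knockdown test at 1 CPM or more. In CACUL1 (chr10:118754971-118755220, minus strand) capitals mark 67 bases covered by peaks of libraries 1 and 3.
CACUL1: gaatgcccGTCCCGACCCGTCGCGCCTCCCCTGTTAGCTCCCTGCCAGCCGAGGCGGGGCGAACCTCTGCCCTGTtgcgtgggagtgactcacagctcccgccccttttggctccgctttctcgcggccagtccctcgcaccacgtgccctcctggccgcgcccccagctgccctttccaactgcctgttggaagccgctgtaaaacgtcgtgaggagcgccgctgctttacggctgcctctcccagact

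None of the 5 stretches contains ATATT or its reverse complement AATAT, short words of the AT-rich kind. GC content was 48.4% in the FASTKD2 stretch, 58.8% in API5, 70.4% in CCDC34, 56.0% in ETV1 and 67.6% in CACUL1. Words were also counted in promoter windows of 300 bases (250 before to 50 after the start). A window was used only where the promoter table puts the start at the edge of the gene span. That kept 502 of the 554 genes with a region at the start. Of 502 windows of genes with a region at the start, 77 (15.3%) held ATATT or AATAT, against 16.5% of all 13820 protein-coding windows. AATATT, which is its own reverse complement and contains both shorter words, was in 19 (3.78%) against 4.43%. The TATA-box word TATAAA, counted on both strands, was in 43 (8.57%) against 10.0%. Median GC content was 61.7% against 62.7%. In the 31 windows that held peaks of all 3 libraries, ATATT or AATAT was in 6 (19.4%), AATATT in 1 and TATAAA in 1, with a median GC content of 57.7%. Over all 502 windows the share of each word was below that of the table as a whole, in the 31 that of ATATT or AATAT was above it, and no test was made. Where the words lie outside the windows was not analysed here.

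Region midpoints spread over the whole window at gene starts. Of the 554 pairs at a start, 271 midpoints lay upstream and 283 at or past the start, with a median distance of 438 bp. At the other end 118 midpoints lay inside the gene and 82 past it, with a median distance of 465 bp. A merged region is wider than its peaks, with a median of 2286 bp against 2262 bp for the other common regions, so its midpoint is not the place of a peak. At the edge of the window, 42 regions lay at 900 to 1000 bp and 38 at 1000 to 1100 bp. Those just inside included regions at OSER1 (996.5 bp) and ALKBH7 (995 bp), and those just outside at NECTIN3 (1001.5 bp), COX5B and OR11H2 (both 1002 bp).

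**Figure D1:**
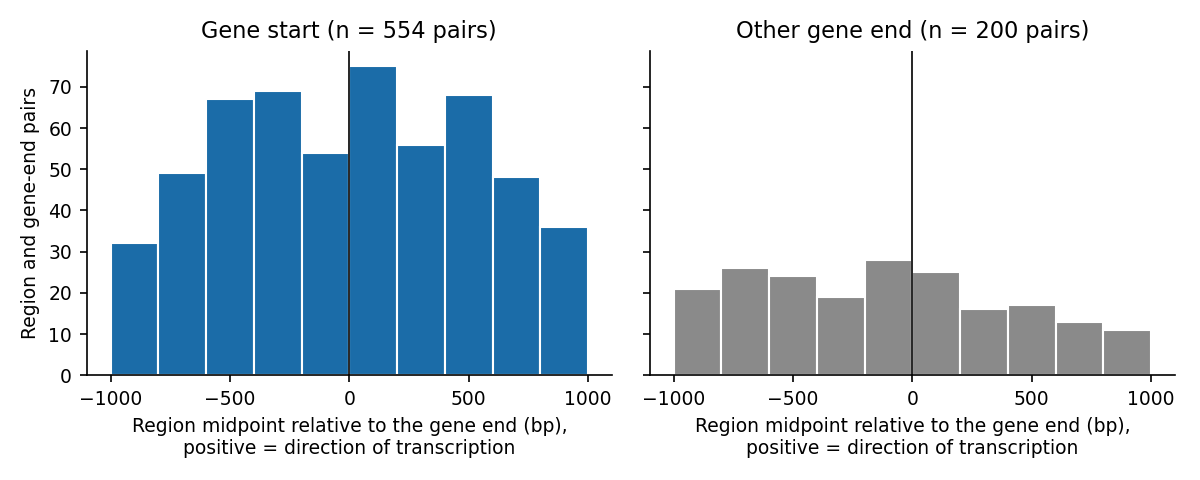
Number of region and gene-end pairs (vertical axis) by distance of the region midpoint from the gene start (left, 554 pairs) or the other gene end (right, 200 pairs) in bins of 200 bp, positive in the direction of transcription. Midpoints lie on both sides of starts, 271 upstream and 283 at or past them.

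The peaks themselves were then placed over all protein-coding genes, a wider set than the pairs above. Over all 15843 protein-coding genes with a strand, library 1 had 27.0 peaks per 1000 genes in the 100 bp from 200 to 100 bp upstream of the start. That was 8.66 times its mean of 3.12 at 1500 to 2000 bp on either side. Library 2 reached 29.4 in the last 100 bp before the start, 1.79 times its flanks, and library 3 reached 37.7 in the same bin, 2.87 times its flanks. The rise in library 2 was broad, with 23.0 still found in the bin centred 1150 bp past the start. At the other end of the gene the highest bin was 1.70, 1.55 and 1.48 times the flanks in libraries 1, 2 and 3. Library 1, the list with the fewest peaks (74708 against 398354 and 296159), thus stood highest over its own flanks.

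**Figure D2:**
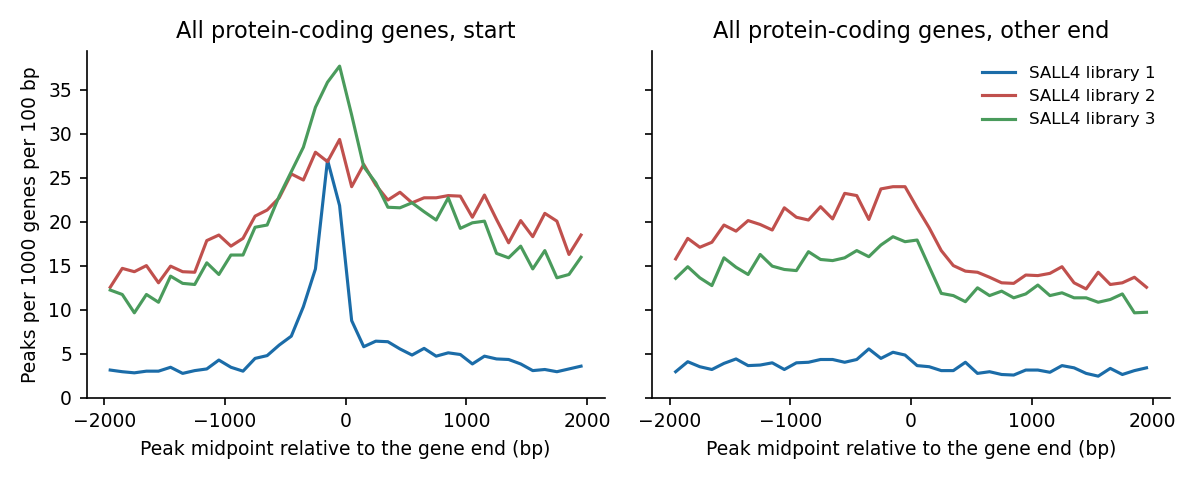
Peaks per 1000 genes in bins of 100 bp (vertical axis) by distance of the peak midpoint from the start (left) or other end (right) of 15843 protein-coding genes, with 1 line for each of the 3 SALL4 libraries. Library 1 rises to 27.0 just upstream of the start, from 3.12 in the flanks.

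Counted within 1000 bp, library 1 had 2185 peaks at starts and 1159 at other ends, a ratio of 1.89. The ratio was 1.20 in library 2 (6787 against 5634) and 1.59 in library 3 (6971 against 4394). Starts had more peaks than other ends in 3 of 3 libraries, with a mean log2 ratio of 0.62 (SD 0.33, n = 3). An exact two-sided sign-flip permutation test over the libraries gave p = 0.25, which is the smallest value 3 libraries allow. What the IgG libraries show at gene starts was not analysed here.

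At the promoters of genes with a region at the start, the libraries seldom met on the same bases. Of their 502 promoter windows, 259 (51.6%) held a peak of library 1, 131 (26.1%) of library 2 and 169 (33.7%) of library 3. Over all 13820 protein-coding windows the shares were 7.51%, 10.2% and 12.9%, a difference that the choice of genes by region position partly fixes. No library had a peak in 105 of the 502 windows, 1 library in 266, 2 libraries in 100 and all 3 in 31. Only 13 windows had a base covered in all 3 libraries, among them those of FASTKD2, API5, CCDC34 and ETV1 printed above and that of MDH1B, the divergent neighbour of FASTKD2.

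The signal of these regions was then compared with that of the other 10444 common regions. Those others include 188 regions on alternate or unplaced sequences, where the rule could place no member. Heights in each library were whole multiples (within 0.01 of a step) of a step, 2.88 units in library 1, 2.64 in library 2 and 3.30 in library 3, so values are given in steps. The median total signal per region was 246 steps in both sets in library 1, 275 against 287 in library 2, and 299 against 285.5 in library 3. The log2 ratio of the medians was 0.00, -0.06 and 0.07, with a mean of 0.00 (SD 0.06, n = 3; exact two-sided sign-flip permutation test, p = 1.0). The difference between the medians was thus smaller than the spread between libraries. The means over regions differed more: 437 steps at gene ends against 468 in library 1, 361 against 436 in library 2 and 412.5 against 437 in library 3. They were lower at gene ends in 3 of 3 libraries, with a mean log2 ratio of -0.15 (SD 0.11, n = 3; exact two-sided sign-flip permutation test, p = 0.25, the smallest value possible). The median highest peak was 4, 3 and 4 steps in libraries 1, 2 and 3 in both sets. The highest peak at a gene end was 21, 9 and 10 steps in the 3 libraries, against 48, 24 and 34 among the other common regions, a set large enough to hold more extremes. Heights of 7 steps or more were found in 11.1%, 1.59% and 4.23% of the regions at gene ends in libraries 1, 2 and 3, against 9.65%, 3.01% and 4.24% of the others.

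**Figure D3:**
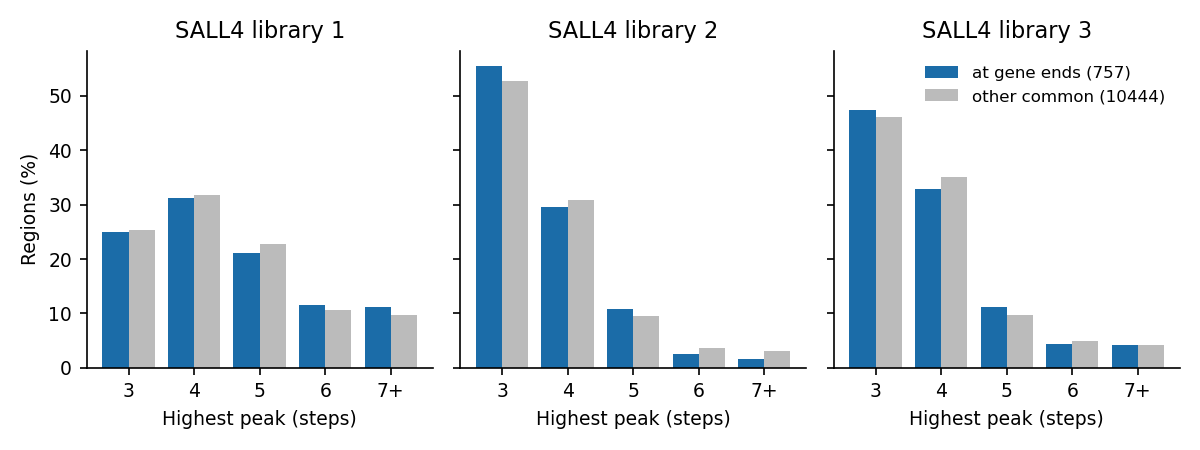
Share of regions (percent) by the highest peak in the region, in steps of signal, for the 757 regions at gene ends (blue) and the 10444 other common regions (grey), 1 panel per SALL4 library. At 3 steps, the lowest height in the set, libraries 1, 2 and 3 hold 25.0%, 55.5% and 47.4% of the regions at gene ends.

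A single peak was found in 76.0% of the regions at gene ends in library 1, 46.5% in library 2 and 40.4% in library 3, against 75.0%, 40.6% and 45.4% of the other common regions. The median length covered by peaks was 133, 146 and 161 bp, against 129, 162 and 146 bp. A base covered in all 3 libraries was found in 49 of the 757 regions (6.47%) and in 1109 of the other 10444 (10.6%), a difference given as a description. The longest such stretch was 213 bp at the start of API5, an inhibitor of apoptosis. It was 161 bp at MYNN, a BTB zinc finger gene, and 144 bp at ACTRT3, an actin-related gene, whose regions are neighbours on chromosome 3. SPRY4, a feedback inhibitor of receptor tyrosine kinase signalling, had 143 bp, ZSWIM2 95 bp, the olfactory receptor OR4K1 87 bp, USP17L10 83 bp, SNW1, a splicing and transcription cofactor, 76 bp, and the pair FASTKD2 and MDH1B 73 bp. The region shared by DNAI7 and ETFRF1 had 83 bp.

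By the rank of the highest peak averaged over the 3 libraries, the strongest region lay at the start of ZNF229, a zinc finger gene of chromosome 19, with 9, 8 and 8 steps. ACTRT3 had 7, 9 and 7 steps, NAALADL2 12, 5 and 10, and MYNN 8, 7 and 6. The start of FAP, which encodes the fibroblast activation protein, is not known from the promoter table. The region at one end of its span (chr2:162240167-162247789) was 18, 4 and 10 steps high and held 6, 5 and 17 peaks. TAF11L10, THAP2 with ZFC3H1, H3C2, TNFRSF19 and CNNM2 completed the 10 strongest. Of the genes of these 10 regions FAP alone passed the test after knockdown, and TAF11L10 could not be tested.

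Regions at gene ends were unevenly shared over chromosomes. On chromosome 19, the most gene-dense, 21 of 59 common regions were at a gene end (35.6%), and on chromosome 17 25 of 120 (20.8%). On chromosome 2, which had the most common regions of any (1599), 89 were at a gene end (5.57%). On chromosome 21 the share was 2 of 131 (1.53%).

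Replication-dependent histone genes, which are short, lie in clusters and encode the histones made in S phase, held the largest share of any list examined with at least 30 genes. Of 74 such genes 17 had a region (23.0%), through 13 regions: 4 genes on chromosome 1 and 13 on chromosome 6. Library 1 had high peaks there, with a median of 7 steps (range 4 to 21) against 4 over all 757 regions, and 7 of the 13 regions reached 7 steps or more. The median was 3 steps (3 to 5) in library 2 and 4 (3 to 9) in library 3, the same as over all 757 regions. The highest peak of library 1 at any gene end was 21 steps, reached both at H2AC17 (4 steps in each of libraries 2 and 3) and at SIRT4, a mitochondrial sirtuin gene (5 and 4 steps). None of the 13 tested histone genes with a region passed the knockdown test, while 5 of all 57 tested genes on the list were higher and 0 lower, with a median log2 fold change of 0.39 over the list. Over all tested protein-coding genes the shares called were 2.72% higher and 5.15% lower, against which 13 genes are few. H3C2 was at 312 and 557 CPM (the count scaled to the library total) in knockdown against 320 and 334 in scramble, so that the groups overlapped. H4C3 was at 348 and 499.3 against 298 and 264 (edgeR adjusted p = 0.0834). Reads of near-identical histone copies may be split between genes, and short genes have both ends close together, so both shares are uncertain.

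Among the chromatin lists, 4 of 22 histone demethylase genes had a region. They were KDM1A and KDM1B, which act on lysine 4 of histone H3, and KDM2B and JMJD1C. The NuRD complex had 1 of 15, MTA1, and the SWI/SNF remodellers 3 of 22, SMARCD1, SMARCD2 and ARID2. No histone methyltransferase gene of 27 had one. Of signalling lists, the PI3K and mTOR list had 4 of 20 (AKT1 and RPTOR among them), the Wnt effectors 3 of 16 (TCF7L2, AXIN2 and GSK3B), and the p53 targets 3 of 26. AKT1, the kinase at the centre of this pathway, was at 202.5 and 242 CPM in knockdown and 289.5 and 309 in scramble (log2 fold change -0.43, SE 0.18; edgeR adjusted p = 0.202). None of the 25 cholesterol synthesis genes and none of 152 genes of keratins and keratin-associated proteins had a region. Zinc finger genes of the ZNF series had 14 of 517 (2.71%), olfactory receptors 6 of 392 (1.53%) and solute carriers 15 of 363 (4.13%). Apart from KDM1B, none of the tested genes with a region in the lists of this paragraph passed the knockdown test.

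The knockdown libraries show which of these genes differed between cells with the SALL4 hairpin and cells with the scrambled one. With 1 SALL4 hairpin used, effects of lower SALL4 and other effects of that hairpin cannot be told apart. Total counts per library were 158934493 to 225624957. As a check of the label, all 10 hepatic markers were under 1 CPM in all 4 libraries (summed 1.27 to 1.91 CPM in knockdown and 1.44 in both scramble libraries), while 6 of 7 fibroblast and stellate markers were above it (summed 1010 to 1230 CPM in knockdown and 1070 to 1200 in scramble). ALB was at 0.415 to 0.771 CPM and AFP at 0.0177 to 0.0503. These hepatic values were scaled to the total of each library alone, without TMM. The transcripts thus lack the hepatocyte markers that the label would lead one to look for. Of the leukocyte markers 1 of 10, and of the endothelial markers 0 of 6, reached 1 CPM. In such bulk samples, fewer cells of a type and less RNA per cell cannot be told apart. Whether replicates came from separately grown cells is not in the labels. The p-values therefore rest on the differences among these 4 libraries alone, which may be technical.

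SALL4 itself, the target of the hairpin, has a common region (chr20:51801528-51804610). Its midpoint lies 548 bp outside the gene span, beyond the edge at the higher coordinate. The promoter table gives no strand for SALL4, so whether that edge is its start was not read here. The region held 1 peak of library 1, 1 of library 2 and 6 of library 3, with highest values of 8, 3 and 8 steps. SALL4 was at 21.6 and 18.7 CPM in knockdown against 74.5 and 58.7 in scramble. Both knockdown libraries were below both scramble libraries, and the transcript fell by 1.72 on the log2 scale (SE 0.19; edgeR adjusted p = 5.84e-06). KDM3A, which removes methyl groups from histone H3, had no region at an end. Its nearest common region was 4.41 kb from an end.

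Of the 848 genes 821 were matched to the count table and 770 had enough counts to be tested. The other 51 matched genes had too few counts and were left out of the fit. At an adjusted p under 0.05, 34 of the 770 were higher after knockdown (4.42%) and 35 lower (4.55%). The background was 2.72% higher and 5.15% lower over all 15157 protein-coding genes tested, and 2.31% and 3.25% over all 25807 genes tested. The share lower was thus near the background and the share higher was above it, a gap for which no test was made. Their median log2 fold change was 0.05, against -0.03 over protein-coding genes. The 2 groups did not overlap in 392 of the 770 genes (50.9%), near the 51.6% over protein-coding genes. Region genes were more highly transcribed, with a median of 43.2 CPM against 20.7 CPM in protein-coding genes without a region, and level bears on which genes can pass. Protein-coding genes were split by CPM into 3 equal classes. In the highest class, 4.26% of 376 region genes were higher and 4.79% lower, against 2.29% and 4.68% of 4677 genes without a region. In the middle class the shares were 3.03% and 4.92% of 264, against 3.28% and 6.81%. In the lowest class they were 7.69% and 3.08% of 130, against 2.32% and 4.06%. The share higher was thus above that of genes without a region in the lowest and highest classes and not in the middle one. Each call named below was recomputed under up to 10 alternatives: another tool, scaling or count table, 2 other filters, replicate numbers as blocks, and each library left out. With 1 library left out, 1 group held a single library. Fewer region genes were called in each direction in each such fit, with the ranges given in the closing section.

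**Figure D4:**
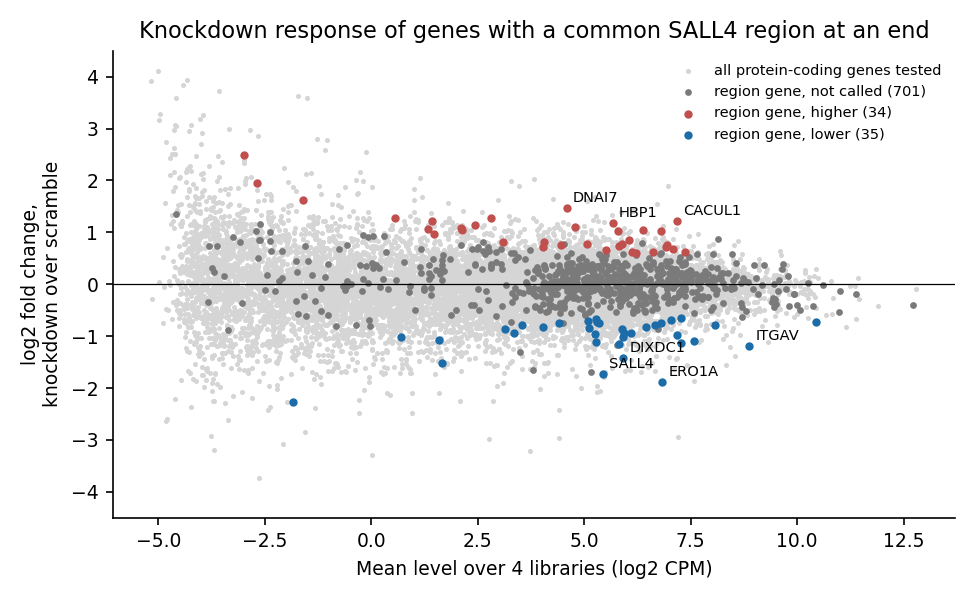
Log2 fold change of knockdown over scramble (vertical axis) by mean level over the 4 libraries (log2 CPM) for all tested protein-coding genes (light grey) and the 770 tested genes with a region (701 not called in dark grey, 34 higher in red, 35 lower in blue). Genes with a region lie on both sides of 0, mostly at middle and high levels.

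The calls were also counted by where the region sat. With a region at the start, 21 of 509 genes were higher (4.13%) and 23 lower (4.52%). With a region at the other end only, 6 of 143 were higher and 6 lower (4.20% each). The difference between the ends was not tested. By the number of libraries with a peak in the promoter window, calls were 6 higher and 5 lower of 96 genes with none and 9 and 11 of 240 with 1. They were 3 and 6 of 96 with 2, and 0 and 0 of 30 with all 3. Those counts are too small to read a trend from, and no test was made. Of the 47 tested genes whose region held a base covered in all 3 libraries, 4 were higher and 1 lower, counts too small to set apart from the 4.42% and 4.55% over all region genes or from the background of 2.72% and 5.15%. In the authors' deposited table, 166 of the 719 region genes listed were higher (23.1%) and 140 lower (19.5%), against 17.2% and 19.8% of all 15141 genes listed. All 62 region genes called here and listed in the authors' deposited table were called there in the same direction. The labels name that table for the same 4 libraries, and its name speaks of 3 libraries per group, so it shares libraries with the fit here and is no independent check.

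The largest gain among region genes at 1 CPM or more was DNAI7, an axonemal dynein gene. It was at 37.7 and 32.7 CPM in knockdown against 15.2 and 10.4 in scramble, which is 1.46 on the log2 scale (SE 0.21; edgeR adjusted p = 0.000135). Its region (chr12:25193776-25197809) lies 632.5 bp upstream of its start and held 5, 6 and 5 peaks in libraries 1, 2 and 3. ETFRF1, which shares that region, was at 40.2 and 17.6 CPM against 23.9 and 9.71, so the groups overlapped and it did not pass (edgeR adjusted p = 0.747). CACUL1, a cullin-like gene linked to cell proliferation, was the most highly transcribed of the 10 largest gains. It was at 214 and 193 CPM against 98.2 and 76.5, which is 1.22 on the log2 scale (SE 0.19; edgeR adjusted p = 0.000245), and its promoter is the one printed last above. HBP1, an HMG-box repressor that slows the cell cycle, was at 55.6 and 85.9 against 30.7 and 31.9 CPM (log2 fold change 1.18, SE 0.20; edgeR adjusted p = 0.00109). In these 3 genes both knockdown libraries lay above both scramble libraries, which the rule for naming them requires.

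A further 6 of the 10 largest gains were CCDC148, PIERCE2, THAP9, METAP1D, CFAP54 and DNAI4, at log2 fold changes of 1.06 to 1.27. DNAI4 lost its call in 3 of 9 alternatives and CCDC148, PIERCE2 and CFAP54 in 1 of 9 each. PIERCE2, CFAP54 and DNAI4 encode parts of the ciliary axoneme, THAP9 a protein derived from a transposase, and METAP1D a mitochondrial methionine aminopeptidase. METAP1D went from 18.3 and 16.4 CPM in scramble to 37.5 and 37.4 in knockdown. Its region (chr2:172081489-172085125) lies 877 bp past its other end, next to a pair of developmental homeobox genes chosen here after their values were seen. DLX1 had a region 64.5 bp inside its other end and was at 161 and 176 CPM in knockdown against 107 and 103 in scramble (log2 fold change 0.68, SE 0.18; edgeR adjusted p = 0.0214). DLX2 was at 81.2 and 98.9 against 62.4 and 55.6 (0.61, SE 0.18; edgeR adjusted p = 0.0475). All 3 neighbouring genes on chromosome 2 were thus called higher, but DLX1 lost the call in 3 of 10 alternatives (edgeR adjusted p up to 0.131) and DLX2 in 5 of 10 (up to 0.348).

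ERO1A, an oxidase that forms disulfide bonds in the endoplasmic reticulum and is induced by hypoxia, had the largest loss. It was at 52.6 and 44.5 CPM in knockdown against 141 and 218 in scramble, a difference of -1.89 on the log2 scale (SE 0.21; edgeR adjusted p = 1.4e-05). Its region (chr14:52693886-52695452) lies 889 bp inside the gene from the start and held 1 peak of each library, 6, 5 and 3 steps high. The other 3 hypoxia genes with a region, of 34 on the list, did not pass. PDK1, which turns pyruvate away from mitochondria, was at 5.89 and 7.59 CPM against 9.002 and 33.4, and DDIT4, an inhibitor of mTORC1, at 11.9 and 21.6 against 14.5 and 94.4. ALDOA, a glycolytic enzyme, was at 985 and 1284 against 1241 and 1789. Scramble replicate 2 was the highest library in all 4 genes, and the part of that library in the result was not tested beyond leaving it out, under which ERO1A still passed. Over the whole list of 34 genes, 10 were lower and 1 higher. The background over tested protein-coding genes was 5.15% lower and 2.72% higher, and no test was made. Half-way values of log2 fold change (medians) were -0.74 for these 34 and 0.00 for all genes tested. Only 4 of the 34 have a region, so the counts for the list mostly describe genes without one.

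DIXDC1, a Wnt pathway protein with a DIX domain, was at 32.2 and 33.4 CPM against 85.4 and 90.7 (log2 fold change -1.42, SE 0.18; edgeR adjusted p = 2.18e-05). ITGAV, the integrin alpha V subunit, was at 306 and 266 CPM against 768 and 538 (-1.19, SE 0.20; edgeR adjusted p = 0.000763), with a region 857.5 bp inside its other end. In both genes the groups were well apart. The interferon-induced gene IFIT1, low at 1.31 and 1.93 CPM against 3.04 and 6.30, fell by 1.53 on the log2 scale (SE 0.34; edgeR adjusted p = 0.0146) and lost its call in 3 of 9 alternatives, as did SYT3. TMEM64, CACYBP, CARS2, SAMD8 and SYT3 fell by 1.07 to 1.16 on the log2 scale. CACYBP encodes a binding partner of the E3 ligase SIAH1, CARS2 the mitochondrial cysteinyl-tRNA synthetase, SAMD8 a sphingomyelin synthase-related enzyme and SYT3 a synaptotagmin.

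**Figure D5:**
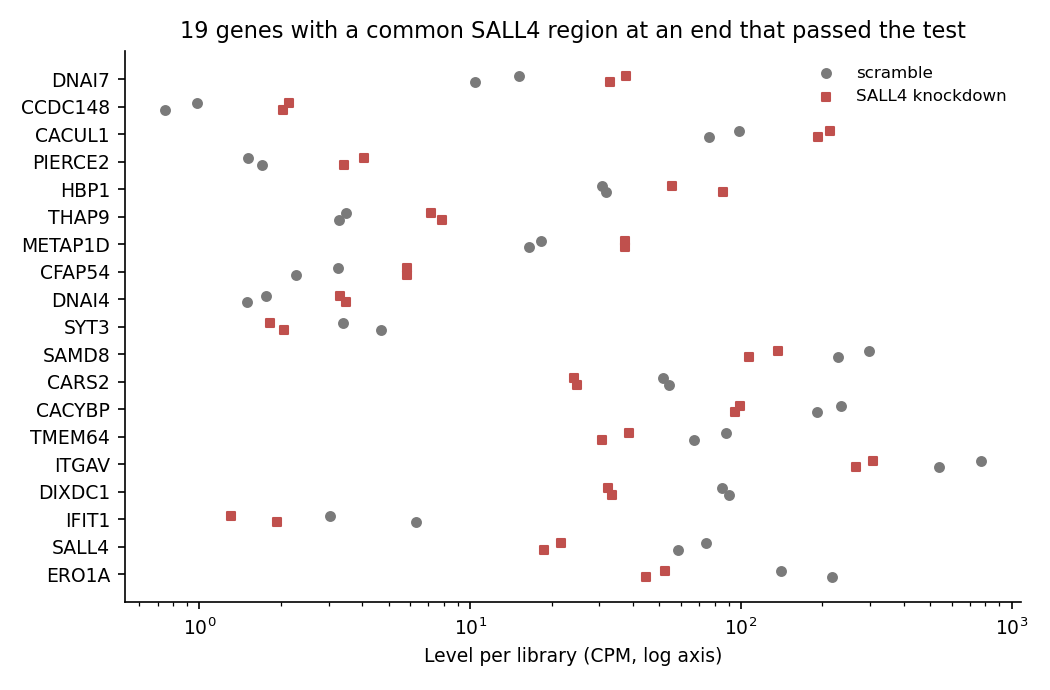
Level in CPM (horizontal log axis) in each of the 4 libraries for 9 of the 10 largest gains and the 10 largest losses among genes with a region, with scramble as grey circles and SALL4 knockdown as red squares. In each of the 19 genes the 2 groups do not overlap, as the rule that chose them requires.

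KDM1B and TPMT, a thiopurine methyltransferase gene, formed the only region with 2 called genes. Their starts lie on opposite strands within reach of chr6:18154425-18157711, whose peaks were 5, 7 and 3 steps high. KDM1B was at 30.8 and 30.5 CPM in knockdown against 58.4 and 44.4 in scramble (log2 fold change -0.75, SE 0.19; edgeR adjusted p = 0.0189). TPMT was at 33.7 and 26.2 against 54.7 and 41.1 (-0.68, SE 0.20; edgeR adjusted p = 0.0439). Each of the 2 genes lost its call in 5 of 10 alternatives, with an edgeR adjusted p of up to 0.296 for KDM1B and 0.419 for TPMT. Over all 68 regions with starts on both strands, 6 of 130 tested genes were higher and 7 lower. Those counts are near the shares of 4.42% and 4.55% over all tested region genes. The background over protein-coding genes was 2.72% higher and 5.15% lower, and no test was made.

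Of the genes of the 10 strongest regions and of the 10 longest shared stretches, 3 passed, all higher: DNAI7, FAP and ZSWIM2. Over all tested protein-coding genes 2.72% were higher and 5.15% lower, against which these genes are few, and no test was made. FAP was at 56.7 and 54.6 CPM against 38.2 and 32.2 (log2 fold change 0.66, SE 0.18; edgeR adjusted p = 0.0327). ZSWIM2 was at 12.7 and 9.10 against 7.25 and 5.18 (0.81, SE 0.24; edgeR adjusted p = 0.0446). FAP and ZSWIM2 each lost the call in 5 of 10 alternatives, and DNAI7 in none of 10. API5, MYNN, ZNF229, ACTRT3, SPRY4 and SNW1 did not pass, with log2 fold changes from -0.45 to 0.36. NR1H4, the bile acid receptor of hepatocytes and the only one of 24 hepatocyte identity genes with a region, was called higher at a level under 1 CPM: 0.179 and 0.252 in knockdown against 0.0662 and 0.00629 in scramble (edgeR adjusted p = 0.0446). Its call was lost in 3 of 8 alternatives.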

How the data were processed

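CUT&RUN of SALL4 and RNA-seq of SNU398 cells were used as deposited. Per the submitters' processing notes, tools include BWA 0.7.17-r1188, SEACR 1.1, HOMER 4.10, STAR and featureCounts, and the build is hg38. Not given in the sources used here are the strand setting, the annotation release and how coverage was scaled. The authors deposited raw counts per gene for each library, a signal (total and highest) for each peak, and a gene table with log2 fold changes, a score (log odds) and p-values. Counts of the library files, not of the combined matrix, were used, and 28 symbols turned into dates were left unmatched. The combined matrix holds fewer counts for the same 4 libraries, 97876641 to 134506309 per library, and the cause was not tested.

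Members and lists were chosen with earlier results of these data known. Peaks were assigned to regions by an overlap of 1 bp. Counts were tested with edgeR 4.0.16 in R 4.3.3 (filterByExpr, TMM, quasi-likelihood F test with robust moderation, no term but group, Benjamini-Hochberg over 25807 genes, threshold 0.05), checked on simulated data. The SE is the size of the log2 fold change over the root of F. Libraries held 158934493 to 225624957 counts, and counting error still matters for genes far below 1 CPM. DESeq2 1.42.0, other scalings, filters, windows and single libraries left out were the alternatives.

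Named genes are SALL4 and KDM3A, the 10 largest called changes in each direction (at least 1 CPM, groups not overlapping), the genes of the 10 highest-ranked regions and of the 10 longest stretches covered in 3 libraries, up to 4 genes per list, and those beside the window's edge. Median total signal was made the main measure after the highest peaks had proved equal. The comparison of gene starts with other ends, and the choice of printed stretches (at least 20 shared bases), were also made after the data were seen. The replicate numbers do not pair the libraries by any label. A few genes that the rule names are not reported here.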

Additional observations from a re-analysis of the deposited data

How the results depend on the processing

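The number of regions was 443 with a window of 500 bp, 1048 with 2000 bp and 1295 with 3000 bp. Calls among region genes (34 higher, 35 lower) came to 26 and 18 with upper-quartile scaling, 52 and 39 without a filter, 24 and 17 at a mean of at least 5 CPM, 19 and 11 within 500 bp, 58 and 50 within 3000 bp, and 21 and 23 at starts only. DESeq2 gave 50 and 40, and the combined matrix 24 and 29. Leaving out 1 library gave 16 to 27 higher and 20 to 33 lower. Windows of another width and starts only change the number of genes by construction. For the other alternatives the cause was not tested. Shares higher and lower over all tested protein-coding genes changed as well. They were 2.72% and 5.15% in the main fit, 1.89% and 2.71% with upper-quartile scaling and 3.48% and 5.36% without a filter. At 5 CPM they were 2.17% and 3.68%, with DESeq2 4.07% and 7.59%, and with the combined matrix 2.33% and 3.83%. Region genes tested were 770 in the main fit, 807 without a filter and with DESeq2, 657 at 5 CPM and 754 with the combined matrix.

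With the replicate number as a block, 116 were higher and 93 lower (15.1% and 12.1% of 770), against 10.9% and 15.2% of protein-coding genes. The deviations of same-numbered libraries correlated at 0.236, over 2 pairs only, and no label says that a number marks a shared batch.

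The 27 named called genes gave 262 pairs of gene and alternative: 219 kept the call, 43 lost it and 0 changed sign, and 14 genes kept it throughout. The calls lost were in IFIT1, SYT3, DNAI4, CCDC148, CFAP54, PIERCE2, FAP, KDM1B, TPMT, DLX1, DLX2, NR1H4 and ZSWIM2. Without scramble replicate 2, 10 named calls were lost. The log2 ratio of starts over other ends was 0.47 to 0.79 and that of median total signal -0.03 to 0.03 with 1 CUT&RUN library left out. With the mean over regions in place of the median, an alternative chosen after seeing the data, the log2 ratio of total signal moved from 0.00 to -0.15. The read depth of the CUT&RUN libraries is unknown, which limits how firmly absent peaks can be read.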
